A study of Arabidopsis thaliana with 60 samples.

Results

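The genes described here are 7 members of the Aux/IAA family of auxin response genes, namely IAA1 (AT4G14560), IAA2 (AT3G23030), IAA3/SHY2 (AT1G04240), IAA5 (AT1G15580), IAA7/AXR2 (AT3G23050), IAA17/AXR3 (AT1G04250) and IAA19/MSG2 (AT3G15540). They were chosen by gene identifier, with earlier results of these data known. All 7 were present among the 21450 genes of the deposited expression tables. Transcript profiles came from 15 Arabidopsis thaliana plants, each sequenced in 4 technical replicates. Of these, 5 were diploids with a mother and a father (BD), 5 were triploids from parents of unequal ploidy (BT), and 5 were triploids with a mother and a pair of fathers (TT). In every group the mother was an ein3-1 mutant, ein3-1 being an ethylene signalling allele, so that all plants carried a maternal mutant copy. BD had a diploid and BT a tetraploid father with the constructs pRPS5a::mGAL4-VP16/- and pUAS::BAR-YFP/-, whereas TT arose when pollen of different donors was applied together and an egg cell fused with a pair of sperm. The RPS5a promoter is broadly active and drives the GAL4 activator that switches on BAR-YFP, so that every plant had been grown under 25 mg/l Glufosinate-ammonium before its transfer to soil 9 days after sowing. Ploidy was checked at 17 days, and the aerial tissue was frozen at 18 days. All plants were grown with 16 hours of light and 8 hours of dark at 23 °C. BD against BT asks for an effect of ploidy, BT against TT for an effect of the second father. Per the paper, TT also inherit the cytoplasm of both sperm and mostly come from seeds whose embryo and endosperm have the same ploidy. These differences between BT and TT cannot be told apart here.

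Aux/IAA proteins are short-lived repressors in the nucleus. At low auxin they bind the ARF transcription factors and recruit TOPLESS corepressors, while auxin joins them to the receptors TIR1 and AFB, which mark them for destruction and so free the ARFs. Most Aux/IAA genes are themselves switched on by ARFs, which closes a feedback loop and makes their transcripts a common read-out of the auxin response in shoots. Dominant mutations that stabilize the protein gave several members their second names, with IAA7 and IAA17 known as AXR2 and AXR3 from auxin resistant plants, IAA3 as SHY2 from a suppressor of a long-hypocotyl mutant, and IAA19 as MSG2 from plants with impaired bending of the hypocotyl.

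The stretch that auxin and the receptors act on, the degron, is encoded in each member by 15 bases that read GGNTGGCCNCCNGTN, with N where the members differ. It is shown here as a feature that these genes share, and it was located by searching each protein for the amino acids GWPPV. The bases other than N are therefore set by the genetic code and are not a separate finding. In the following 57 bases of coding sequence, read by splicing the RefSeq TAIR10.1 annotation and printed 5′ to 3′, the degron core is in capitals.
IAA1: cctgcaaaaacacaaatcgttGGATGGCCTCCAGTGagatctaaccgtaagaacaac
IAA2: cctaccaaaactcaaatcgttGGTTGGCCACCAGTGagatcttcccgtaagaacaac
IAA3: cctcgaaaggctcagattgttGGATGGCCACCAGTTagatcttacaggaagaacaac
IAA5: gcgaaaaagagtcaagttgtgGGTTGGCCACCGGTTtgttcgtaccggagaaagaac
IAA7: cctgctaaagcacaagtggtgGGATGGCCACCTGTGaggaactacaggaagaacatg
IAA17: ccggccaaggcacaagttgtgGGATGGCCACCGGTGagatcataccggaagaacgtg
IAA19: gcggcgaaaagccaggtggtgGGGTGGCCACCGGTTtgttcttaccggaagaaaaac
The core was found in all 7 members. Of the 57 bases, 50 were identical between IAA1 and IAA2, 46 between IAA7 and IAA17 and 45 between IAA5 and IAA19, and 33 between IAA5 and IAA7. In IAA5 and IAA19 the window lay within exon 1. In the other members an intron interrupted the window.

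Over the whole coding sequence, IAA1 and IAA2 were identical at 85.6% of aligned bases and IAA7 and IAA17 at 75.5%. Several members were neighbours in the genome, with positions from TAIR10.1. IAA3 (chromosome 1, 1128149 to 1129689, minus strand) and IAA17 (chromosome 1, 1136078 to 1138663, plus strand) pointed away from each other across 6388 bases. IAA2 (chromosome 3, 8180646 to 8182095, minus strand) and IAA7 (chromosome 3, 8194606 to 8197161, plus strand) did so across 12510 bases, with no coding gene between the members of either pair. IAA1 (chromosome 4, 8360996 to 8362033, plus strand) lay 10732 bases from IAA14, a family member outside the 7. IAA5 (chromosome 1, 5365512 to 5366497, minus strand) and IAA19 (chromosome 3, 5264001 to 5265695, plus strand) had no other family member next to them. Reads were 75 bases long, and no stretch of 75 bases was shared with another gene in 6 of the 7 members, including IAA1 and IAA2. In IAA3, 32.6% of the stretches also belonged to AT1G04230, which overlaps it by 640 bases on the opposite strand. The library kit did not mark the strand, so the value of IAA3 is less certain than the others. AT1G04230 itself was listed at 248 to 364 normalized counts against a median of 932 for IAA3. IAA5 overlapped the cyclin gene CYCA2;3 by 48 bases, a stretch too short for the search to find. Per the paper, reads were trimmed for quality and mapped with mismatches allowed. The search for exact stretches of 75 bases therefore does not show that shorter or mismatched reads were unique to a member.

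The 300 bases before the annotated start were searched on both strands for TGTCTC, the classical auxin response element, for TGTCGG, a sequence that ARFs also bind, and for CACGTG, the G-box. The motifs did not overlap one another in any member. TGTCTC occurred in 4 of the 7 members against 13% of 27443 genes in the annotation, TGTCGG in 2 of 7 against 4.91%, and CACGTG in 2 of 7 against 7.09%. IAA19 had 3 copies of TGTCTC, beginning 184, 145 and 128 bases before the start, and a G-box at 70 bases. IAA5 had TGTCTC at 67 bases and TGTCGG at 226 and 97 bases, and IAA1 had TGTCTC at 135 bases and TGTCGG at 36 bases. IAA3 held a single TGTCTC, IAA7 a single G-box, and IAA2 and IAA17 none of the 3 motifs in this window. A match describes the letters only. The windows of the 3 members with more than 1 motif are printed 5′ to 3′ on the strand of the gene, from TAIR10.1, with the motifs or their complements in capitals.
IAA1, chr4:8360696-8360995, plus strand: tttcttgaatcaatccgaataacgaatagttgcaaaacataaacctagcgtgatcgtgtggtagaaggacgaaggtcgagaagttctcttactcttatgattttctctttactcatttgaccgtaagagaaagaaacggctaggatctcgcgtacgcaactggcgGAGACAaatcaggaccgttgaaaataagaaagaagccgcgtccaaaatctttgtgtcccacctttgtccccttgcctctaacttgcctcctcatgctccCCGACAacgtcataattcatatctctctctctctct
IAA5, chr1:5366498-5366797, minus strand: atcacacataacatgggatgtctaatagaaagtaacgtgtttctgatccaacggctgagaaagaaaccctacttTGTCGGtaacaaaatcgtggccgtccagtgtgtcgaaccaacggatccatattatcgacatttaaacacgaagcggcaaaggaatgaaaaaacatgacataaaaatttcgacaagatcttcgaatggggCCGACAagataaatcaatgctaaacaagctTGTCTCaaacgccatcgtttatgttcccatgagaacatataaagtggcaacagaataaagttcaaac
IAA19, chr3:5263701-5264000, plus strand: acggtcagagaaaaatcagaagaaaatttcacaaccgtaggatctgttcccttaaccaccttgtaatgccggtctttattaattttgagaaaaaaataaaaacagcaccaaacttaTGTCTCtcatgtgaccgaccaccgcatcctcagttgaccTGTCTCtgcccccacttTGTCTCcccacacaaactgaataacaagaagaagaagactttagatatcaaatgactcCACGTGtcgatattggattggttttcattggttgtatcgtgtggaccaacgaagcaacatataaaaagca

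The plants were sequenced to similar depth, with 19534646 to 30756482 reads counted on genes in BD, 20600915 to 27649421 in BT and 23594275 to 26882280 in TT. The labelled tissue was checked against its markers. All 5 leaf genes (RBCS1A, RCA, LHCB2.1, PSBO1 and GLDP1) were abundant, with a summed normalized count of 693422 to 1110979 in BD, 488119 to 1088938 in BT and 839804 to 1125987 in TT. Of 4 root genes NRT2.1 was listed, at 11.9 to 74.9, and the 5 flower genes AP1, AP3, PI, AG and LFY summed to 38.0 to 124.9. Since whole shoots were ground, fewer cells of a type and less RNA per cell cannot be told apart in any value given here. BD replicate 4 and BT replicate 5 stood apart from the other plants. Their mean Spearman coefficients with the other profiles were 0.990 and 0.987, against at least 0.993 in the rest, and results that rest on them are given with and without them.

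Per length, IAA2 was the most abundant member and IAA5 the least. In TPM, read counts corrected for gene length and scaled to the same total in each plant, IAA2 reached 65.6 ± 18.0 (SD, n = 15 plants), IAA3 56.9 ± 21.5, IAA7 56.2 ± 7.91, IAA17 46.6 ± 7.61, IAA1 25.7 ± 7.12, IAA19 4.80 ± 1.37 and IAA5 4.32 ± 1.38. Neighbours in this order were compared within plants by an exact 2-sided sign-flip test on log2 TPM, in 6 comparisons without adjustment. IAA2 lay above IAA3 in 12 of 15 plants (exact p = 0.00964), and IAA7 above IAA17 in 14 of 15 (exact p = 0.000122). IAA17 lay above IAA1 and IAA1 above IAA19 in all 15, with an exact p of 6.1e-05 each, the smallest that 15 plants allow. IAA3 and IAA7 did not differ beyond their spread, with IAA3 higher in 8 of 15 plants (exact p = 0.598), nor did IAA19 and IAA5, with IAA19 higher in 10 of 15 (exact p = 0.205).

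**Figure D1:**
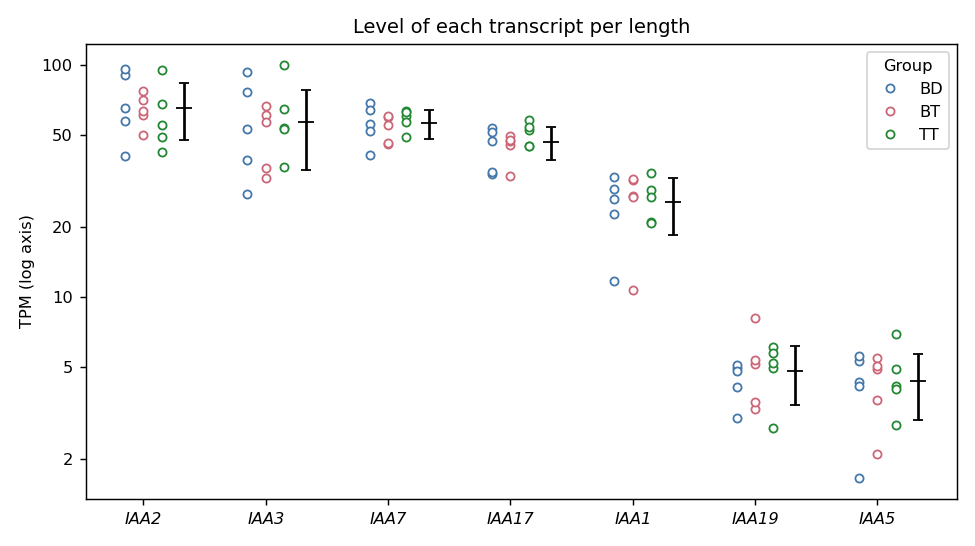
TPM of each member on a log axis, with 1 circle per plant coloured by group and the mean ± SD of all 15 plants in black. IAA2, IAA3, IAA7 and IAA17 lie mostly near 50, IAA1 at 25.7 on average, and IAA19 and IAA5 near 5, and within each member the 3 groups cover much the same range.

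IAA1 and IAA2 are a closely related pair of early auxin response genes. The normalized count of IAA1, the read count divided by a size factor for the plant, was 325, 517, 635, 175 and 441 in BD replicates 1 to 5, 475, 528, 478, 489.9 and 158 in BT, and 316, 466, 545, 509 and 325 in TT. The lowest plants were BT replicate 5 and BD replicate 4, and the other plants lay between 325 and 635 in BD, 475 and 528 in BT and 316 and 545 in TT, so that the groups overlapped. IAA2 was at 1135, 1954, 2278, 744 and 1174 in BD, at 1111, 1274, 1663, 1598 and 907 in BT, and at 912, 1092, 1320.5, 2188 and 805 in TT. Here BD replicate 3 and TT replicate 4 were highest, BD replicate 4 and TT replicate 5 lowest, and the groups overlapped.

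IAA3/SHY2, known from roots for tuning cell division against cell differentiation, varied most between plants. It was at 583, 1772, 1513, 430.1 and 932 in BD, at 562, 1038, 1048, 1295 and 518 in BT, and at 582, 877, 1049.6, 1971 and 879.8 in TT. Low and high plants occurred in every group, with replicates 1 below the median of the 15 plants in each. IAA17/AXR3, its divergent neighbour, was at 914, 1738, 1906, 994 and 1479 in BD, at 1279.9, 1515, 1575, 1667 and 934 in BT, and at 1292.5, 1631, 1771, 1911 and 1290.0 in TT. TT replicate 4 and BD replicate 3 were highest and BD replicate 1 and BT replicate 5 lowest, so that the groups overlapped. IAA7/AXR2 varied least, at 1484, 1723, 1701, 967 and 1353 in BD, at 1376, 1516, 1241, 1601 and 1074 in BT, and at 1189, 1517, 1559.6, 1811 and 1370.4 in TT.

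IAA5 and IAA19/MSG2, the latter a repressor partner of ARF7 in tropic bending, were the rare members. IAA5 was at 39.3, 45.8, 65.8, 16.1 and 60.0 normalized counts in BD, at 53.0, 51.5, 41.0, 60.5 and 20.5 in BT, and at 40.9, 29.2, 50.9, 48.0 and 69.8 in TT. These values rest on 19 to 73 reads. The lowest read count, 19 in BT replicate 5, has an exact 95% Poisson interval of 11.4 to 29.7 and the highest, 73 in TT replicate 5, one of 57.2 to 91.8, and these intervals cover counting error only. IAA19 was at 93.4, 112, 127, 61.4 and 89.9 in BD, at 67.0, 175, 121, 135 and 70.2 in BT, and at 56.0, 108, 135, 141 and 106 in TT. The lowest plant of IAA19 was thus TT replicate 1 and the highest BT replicate 2, with the groups again overlapping.

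**Figure D2:**
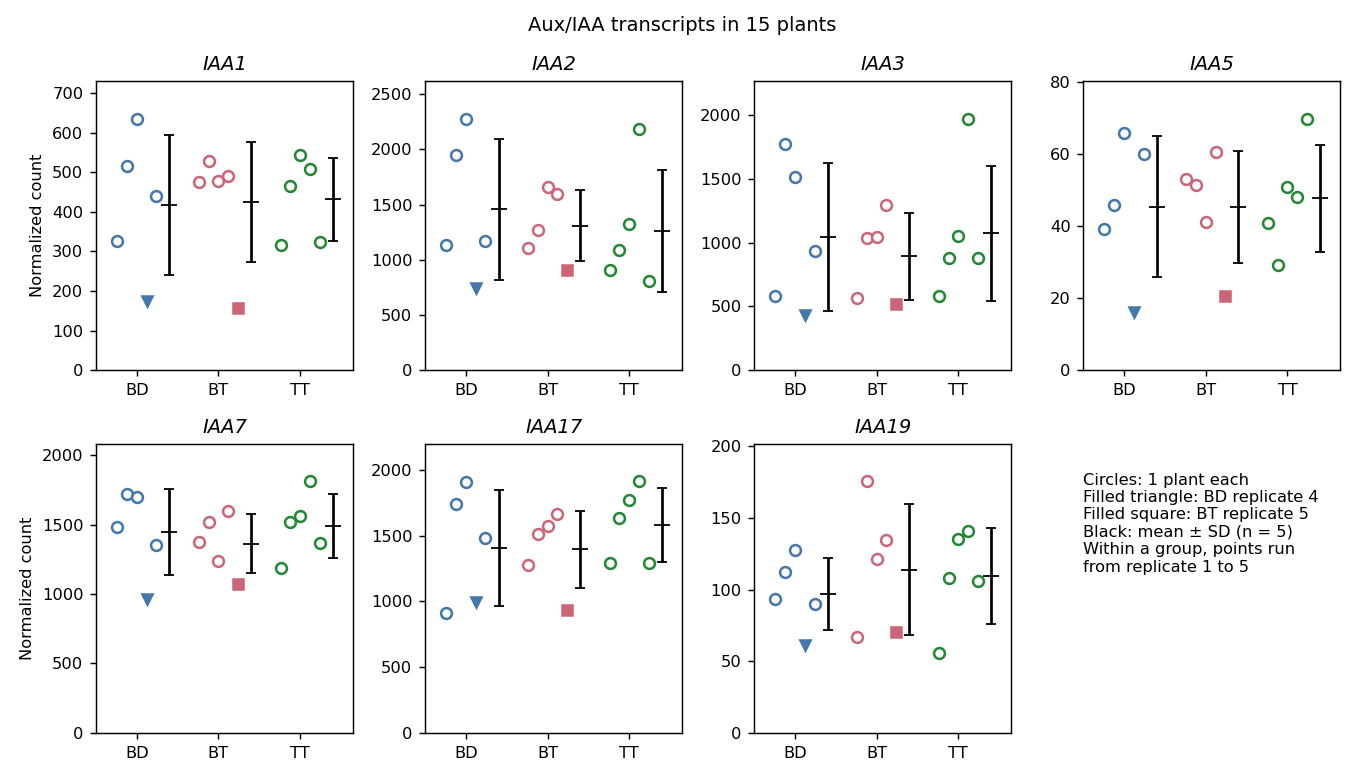
Normalized counts of the 7 members, 1 panel per gene with its own axis from 0, 1 symbol per plant, and the mean ± SD of 5 plants in black. BD replicate 4 (filled triangle) is the lowest BD plant for 6 members and BT replicate 5 (filled square) the lowest BT plant for 6 members, and the groups overlap in every panel.

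Between biparental triploids and diploids no member passed the test. Means were 426 ± 151 (SD, n = 5) in BT and 419 ± 177 (n = 5) in BD for IAA1, 1311 ± 321 and 1457 ± 635 for IAA2, 892 ± 338 and 1046 ± 581 for IAA3, and 114 ± 45.7 and 96.8 ± 24.8 for IAA19. On the scale log2(normalized count + 1), which understates changes of low genes, the differences BT minus BD ran from -0.12 (standard error 0.40) in IAA3 to 0.17 (standard error 0.30) in IAA19, with 4 members higher and 3 lower. In limma's test 0 of 7 members had an adjusted or an unadjusted p under 0.05. Of all 21450 genes, 0% had a Benjamini-Yekutieli adjusted p under 0.05 and 1.73% (371 genes) an unadjusted one, 0.774% higher and 0.956% lower in BT. The adjusted count was also 0 with edgeR and with DESeq2 on recovered reads, where 363 and 319 genes had an unadjusted p under 0.05. The members' median was 0.02 beside 0.00025 over all genes. It was -0.25 with 6 members lower without BD replicate 4, 0.16 with 7 higher without BT replicate 5, and -0.02 with 4 lower without both. The 95% interval was narrowest for IAA7, from -0.41 to 0.27, and widest for IAA3, from -0.97 to 0.73.

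Between triparental and biparental triploids no member passed the test either. Means in TT were 432 ± 105 (SD, n = 5) for IAA1, 1264 ± 553 for IAA2, 1072 ± 530 for IAA3, 1489 ± 231 for IAA7 and 1579 ± 281 for IAA17, the last pair beside 1362 ± 211 and 1394 ± 294 in BT. The log2 differences TT minus BT ran from -0.11 (standard error 0.31) in IAA2 to 0.24 (standard error 0.40) in IAA3, with 0 of 7 members under an adjusted or unadjusted p of 0.05 in limma's test. This was the comparison with the most genes at an unadjusted p under 0.05, 9.41% of all genes (2018), with 4.38% higher and 5.03% lower in TT, of which 0% passed the adjustment. With edgeR 2382 and with DESeq2 2562 genes had an unadjusted p under 0.05, and 0 an adjusted one. The members' median was 0.11 beside 0.0013 over all genes. Without BD replicate 4 and BT replicate 5, and also without BT replicate 5 alone, this median turned to -0.15 and 4 of the 7 members were lower in TT instead of 2, none past either threshold.

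Triparental triploids and diploids, which differ in ploidy and in the number of fathers, gave the same picture. IAA5 stood at 47.8 ± 14.9 (SD, n = 5) in TT, 45.3 ± 15.5 in BT and 45.4 ± 19.5 in BD. The log2 differences TT minus BD ran from -0.19 (standard error 0.31) in IAA2 to 0.21 (standard error 0.21) in IAA17, which had the smallest unadjusted p of any member in any comparison (limma, p = 0.343). Again 0 of 7 members passed, beside 2.4% of all genes (514, with 0.984% higher and 1.41% lower in TT) at an unadjusted and 0% at an adjusted p under 0.05, and 650 and 649 genes at an unadjusted p by edgeR and DESeq2, with 0 at an adjusted one. In this comparison 6 of 7 members were higher, with a median of 0.14 beside -0.0032 over all genes. Without BD replicate 4 alone, 6 of 7 were lower and the median was -0.14. Leaving out BT replicate 5 as well gave the same values, since that plant is in neither group. The 3 comparisons share plants and are not independent of each other.

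**Figure D3:**
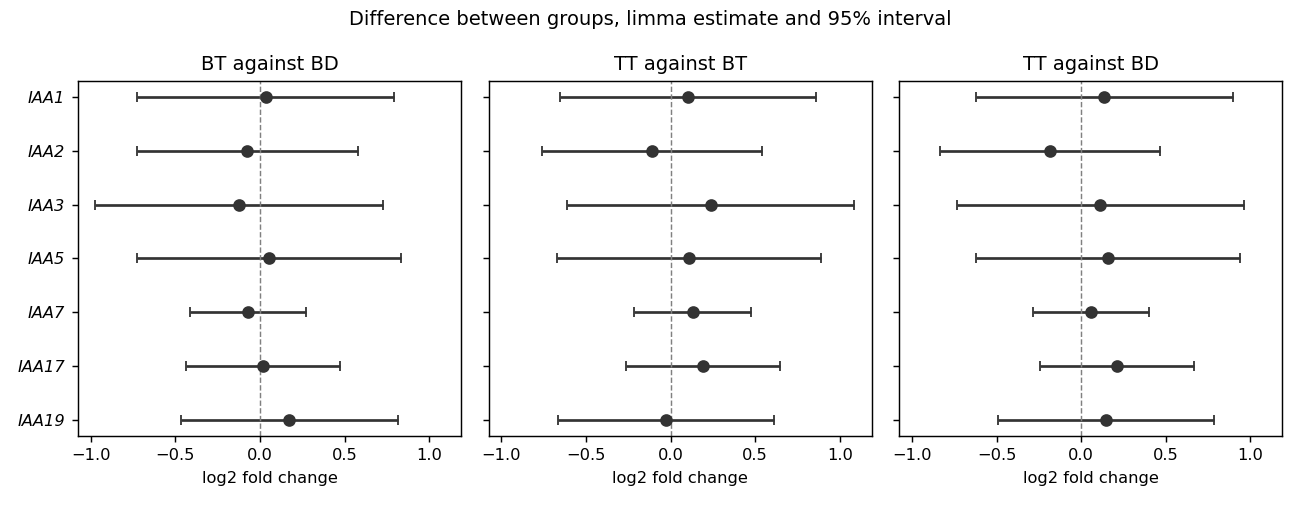
Difference between groups in log2(normalized count + 1) for each member, as limma's estimate (point) with its 95% interval (bar), in the 3 comparisons. Every interval includes 0, and the intervals of IAA7 and IAA17 are narrower than those of the other 5 members.

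Whereas the groups did not separate, single plants differed widely. Between the lowest and the highest of the 15 plants, of whichever group, IAA3 differed 4.58-fold, IAA5 4.33-fold, IAA1 4.03-fold, IAA19 3.13-fold, IAA2 3.06-fold, IAA17 2.09-fold and IAA7 1.87-fold. Between sister plants IAA3 differed 4.12-fold in BD, 2.50-fold in BT and 3.38-fold in TT. For IAA7 these ranges were 1.78-fold, 1.49-fold and 1.52-fold. The residual SD within groups was 0.71 on the log2 scale for IAA3, 0.63 for IAA1 and IAA5, 0.54 for IAA2 and 0.51 for IAA19. These values ranked between the 84.3rd and the 92.2nd percentile of the 18783 genes that averaged 10 or more normalized counts, whose median was 0.28. IAA7, at 0.27, ranked at the 47.9th percentile and IAA17, at 0.37, at the 69.6th.

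BD replicate 4 was among the 3 lowest of the 15 plants for all 7 members and BT replicate 5 for 6 of them. In BD replicate 4 the members lay at -0.69 (IAA17) to -1.64 (IAA5) on the log2 scale relative to the median of the other 4 BD plants. In BT replicate 5 they lay at -0.43 (IAA7) to -1.61 (IAA1) relative to that of the other 4 BT plants. These were the plants with the lowest scores on the first principal component of all genes, -36.7 and -46.5, a component that carried 44.5% of the variance. Their leaf marker sums, 693422 and 488119, were the lowest of their groups, and their read totals were 30756482 and 20600915. BD replicate 1 had a similar leaf marker sum, 710400, and was among the 3 lowest plants for 1 member. The part of the leaf genes or of this component in the low Aux/IAA counts was not tested. TT replicate 1 was below the median of the 15 plants for all 7 members and lowest of its group for 4, with a score of 6.12. At the other end, BD replicate 3 was among the 3 highest plants for 6 members and TT replicate 4 for 5.

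In BT replicate 2 the genes of chromosome 4, on which IAA1 lies, were shifted upwards as a whole, by a median log2 deviation of 0.34 from all plants, and the 100 listed genes nearest to IAA1 by the same amount. IAA1 in this plant was 0.15 above its own median, at 528 normalized counts, and without the plant its difference BT minus BD was -0.07 instead of 0.03. All 7 members were lower in BT without this plant, those on chromosomes 1 and 3 included, and the difference of IAA1 also changed sign in 5 of the other 9 fits without a plant. For the other members, and for IAA1 in the other plants, the median of the 100 nearest genes stayed between -0.14 and 0.08. IAA19, the member that was highest in BT replicate 2, lies on chromosome 3, and its neighbours there stood at -0.02.

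The 7 members varied together from plant to plant. Because the list was made with earlier results of these data known, the p-values below describe these plants only. They cannot serve as a test of co-variation in the family. Over 15 plants Pearson's r was above 0 in all 21 pairs, from 0.483 (IAA2 and IAA5) to 0.887 (IAA3 and IAA17) with a median of 0.755, and 20 of 21 pairs had an unadjusted permutation p under 0.05 with 100000 resamples. Spearman's rho ran from 0.386 to 0.907, with 15 of 21 pairs under 0.05. The 6 pairs over it were those of IAA5 (permutation p of 0.0569 to 0.154). IAA3 and IAA17 gave r = 0.887 and rho = 0.896 (permutation p = 1e-05 for r, the smallest that the resamples can give, and 4e-05 for rho), and 0.851 without the 2 plants farthest from the median of IAA3. IAA2 and IAA3 gave r = 0.881 and rho = 0.907 (permutation p = 1e-05 each), and 0.831 without 2 plants. The weakest pair, IAA2 and IAA5, gave r = 0.483 (permutation p = 0.0671) and rho = 0.393 (permutation p = 0.150).

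Within groups the relation was as large. With each group's mean removed, r ran from 0.511 to 0.916 with a median of 0.770. With the 2 farthest plants of each pair left out it ran from 0.145 to 0.851 (median 0.634), and 4 of the 20 pairs fell under 0.3, all of them pairs of IAA5, namely with IAA1, IAA7, IAA17 and IAA19. Without BD replicate 4 and BT replicate 5 all 6 pairs of IAA5 fell under 0.3, to between 0.113 and 0.254, so that the correlation of IAA5 with the other members rests on these 2 plants. The 15 pairs without IAA5 then lay between 0.547 and 0.836, the median of all 21 was 0.621, and without replicate 1 of each group the 21 pairs ran from 0.515 to 0.967 (median 0.807). For comparison, the median r of a member with 16246 other genes of at least 50 normalized counts lay between -0.06 and -0.01. Between 3.4% and 8.62% of these genes exceeded a member's median r with the other members. The medians near 0 hide a wide spread, as 5.47% (IAA19) to 16.9% (IAA3) of these genes had an r above 0.7 or below -0.7 with a member. The share of these genes with a permutation p under 0.05 was not computed. The members share libraries and size factors, and they also followed the first principal component of all genes, with r from 0.486 (IAA2) to 0.807 (IAA7), and from 0.103 (IAA1) to 0.570 (IAA3) without BD replicate 4 and BT replicate 5.

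**Figure D4:**
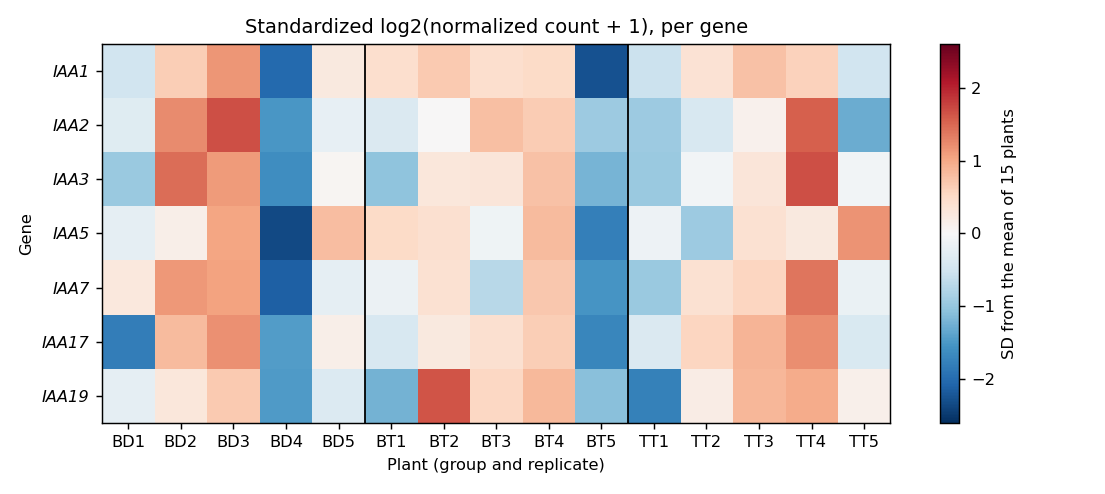
Standardized log2(normalized count + 1) of the 7 members (rows) in the 15 plants (columns, BD, BT and TT separated by black lines), in SD from the gene's mean. BD4 and BT5 are blue in every row and BD3, BT4 and TT4 red in every row, and each group holds columns of both colours.

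The genes whose pattern was most like that of the 7 members were sought among genes with at least 50 normalized counts, by Pearson's r over 15 plants with the members' mean standardized profile. The highest were AT5G54585 (0.963), AT1G26920 (0.959), AT2G32090 (0.957), AT4G25830 (CASPL2C1, 0.951), PAP3 (a purple acid phosphatase, 0.948), AT2G32560 (0.948), IAA14 (0.945), AT1G67900 (0.944), PKS2 (a phytochrome kinase substrate, 0.943) and AT2G38680 (0.941). IAA14, the Aux/IAA gene named for SOLITARY ROOT and the neighbour of IAA1, ranged from 95.2 counts in BD replicate 4 to 426. The most opposite genes were AT2G01720 (-0.946), DGL1 (of the protein glycosylation machinery, -0.938), SDH1-1 (a subunit of succinate dehydrogenase, -0.936), AT2G36580 (-0.933) and AT4G12290 (-0.927). SDH1-1 was at 3977 counts in BD replicate 4 and 3953 in BT replicate 5 against a median of 2186. DGL1 and SDH1-1 lie on chromosome 5, whose genes were shifted as a whole in BT replicate 5, by a median log2 deviation of 0.30, and in BD replicate 4 by -0.0051. Without these 2 plants the coefficients of all 15 genes kept their sign, with absolute values of at least 0.851.

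Each member also had close followers of its own. For IAA1 they were AT4G23670 (0.957), BAS1, which inactivates brassinosteroids (0.940), and LOL1 (0.939). For IAA2 they were AT4G29905 (0.969), AT5G13090 (0.957) and AT5G54980 (CASPL2D1, 0.950). IAA3 was followed by HAT1, a homeodomain-leucine zipper gene (0.967), PKS2 (0.967) and AT2G05310 (0.966). For IAA5 the values were lower, with SAUR27 (0.919), the trichome repressor gene TCL2 (0.880) and AT4G00530 (0.873). IAA7 was followed by DCF, named for cutin ferulate (0.967), AT3G62630 (0.967) and AT1G70100 (0.950), IAA17 by AT5G42070 (0.957), AT4G37550 (0.949) and LEA3 (0.948), and IAA19 by AT1G68600 (0.906), AT1G22160 (0.889) and IAA14 (0.885). These coefficients describe the 15 plants and were picked as the highest of 16246. Without BD replicate 4 and BT replicate 5, those of IAA1 fell to 0.838, 0.779 and 0.741, in the order given. Those of IAA5 fell to 0.750, 0.672 and 0.686, and those of the other members stayed at 0.856 or above.

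The rest of the auxin pathway gave no adjusted call either. In the files were 21 of 22 further Aux/IAA genes, all 6 TIR1/AFB receptors, 15 ARF genes, 3 corepressors, 7 of 8 GH3 genes, whose products conjugate auxin to amino acids, 16 SAUR genes, small auxin-induced regulators of growth, 9 of 10 synthesis and 8 transport genes. In limma's test 0 of these 85 genes had an adjusted p under 0.05 in any comparison, and an unadjusted p under 0.05 was found in 1 of 85 (1.18%) in BT against BD beside 1.73% of all genes, and in 4 of 85 (4.71%) in TT against BT beside 9.41%. In BT against BD, GH3.9 was lower (109 ± 47.9 against 173 ± 59.0 normalized counts, SD, n = 5, log2 difference -0.70, limma unadjusted p = 0.0379). In TT against BT it was higher (187 ± 50.6 against 109, log2 difference 0.83, limma unadjusted p = 0.0165), beside the corepressor gene TPR4 (1255 ± 163 against 1016 ± 116, 0.30, p = 0.0240). IAA28 (107 ± 12.3 against 144 ± 22.9, -0.42, limma unadjusted p = 0.0174) and SAUR9 (25.8 ± 8.73 against 64.6 ± 48.0, -1.06, p = 0.0431) were lower there. The adjusted p of each was 1 with limma, and TT against BD had no gene of these lists at an unadjusted p under 0.05. SAUR9 was highest of all plants in BT replicate 5, at 143 against a median of 42.0 in the other BT plants. GH3.9 was lowest of all plants there, at 62.7 against 112. The differences of these genes without that plant were not computed. All 8 transport genes, the PIN efflux and AUX1/LAX influx carriers, were lower in BT than in BD and higher in TT than in BT, with medians of -0.08 and 0.25, while none had an unadjusted p under 0.05 and both comparisons share the BT plants. The 5 leaf markers moved alike, all lower in BT than in BD (median -0.08) and all higher in TT than in BT (median 0.24), and their part in the transport values was not tested.

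From plant to plant the lists did not move as a block with the 7 members. Of the further Aux/IAA genes 17 of 21 had an r above 0 with the members' mean profile (median 0.361). In both BD replicate 4 and BT replicate 5, 12 of 21 were lower than the median of the sister plants. The same was seen in 13 of 16 SAUR, 6 of 8 transport, 5 of 9 synthesis, 5 of 15 ARF and 3 of 6 receptor genes. It was seen in 2 of 7 GH3 genes and 1 of 3 corepressors. The shares over all genes were not computed. SAUR genes had r above 0 in 14 of 16 cases (median 0.348), auxin transport in 6 of 8 (median 0.365) and auxin synthesis in 7 of 9 (median 0.192). The median was below 0 for TIR1/AFB receptors (-0.126), ARF genes (-0.0942), GH3 genes (-0.308) and the corepressors (-0.566). Among the lowest ARF and receptor genes, ARF4 (-0.728), ARF7 (-0.565) and AFB5 (-0.660) lie on chromosome 5 and were highest in BT replicate 5. The genes of that chromosome were shifted upwards in this plant. ARF16 (-0.633) and the corepressor genes lie on other chromosomes. The part of the shift in these medians was not tested. The following examples were chosen after their values were seen. SAUR66 (r = 0.931) was at 134 and 162 normalized counts in BD replicate 4 and BT replicate 5, against medians of 383 and 297 in their sister plants. TAR2, an enzyme of auxin synthesis (r = 0.874), was at 235 and 153 against 472 and 461. GH3.6 (r = -0.864) ran the other way, at 1412 and 706 against 161 and 183, and also lies on chromosome 5, with its shift in BT replicate 5.

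**Figure D5:**
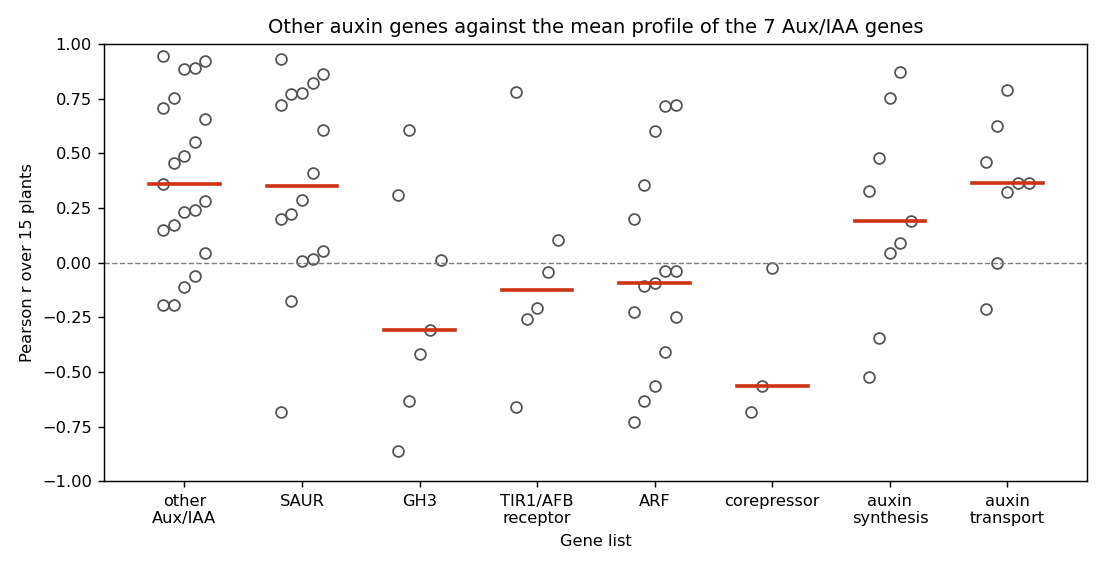
Pearson's r over 15 plants between each further auxin gene (circle) and the mean standardized profile of the 7 members, by gene list, with the list's median as a red bar. Further Aux/IAA and SAUR genes have medians of 0.361 and 0.348 and range from below 0 to above 0.9, whereas GH3 genes and corepressors have medians of -0.308 and -0.566.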

How the data were processed

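Per the labels, poly(A) RNA of aerial tissue was sequenced as single reads of 75 bases. That the reads carry no strand mark was taken from the library kit. According to the submitters' processing notes, Trimmomatic 0.38, STAR 2.6.0c, Salmon 0.11.3 and DESeq2 1.22 were applied with TAIR10. The authors combined the 4 technical replicates of a plant, removed genes with very few counts, and deposited 3 tables of 21450 genes. The first holds normalized counts, a signal that the authors made by dividing gene counts by a size factor per plant. The second holds rlog values, which the authors computed with DESeq2's regularized log2 transformation. The third holds TPM, which the authors computed from counts and gene lengths. Dividing the deposited signal by its smallest positive value in a plant gave whole counts of reads for 100% of values within 0.001.

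Groups were compared with limma 3.58.1 (R 4.3.3) on log2(normalized count + 1), with all 15 plants and all genes in the fit, a variance trend, 2-sided, and Benjamini-Yekutieli adjustment at 0.05. An unadjusted p under 0.05 served as a second call. The alternatives were pseudocounts of 0.5 and 5, a minimum mean count of 10, TPM, rlog values, quantile normalization, no trend, Benjamini-Hochberg adjustment, fits of 2 groups, array weights, a replicate block, edgeR 4.0.16 (quasi-likelihood, TMM) and DESeq2 1.42.0 on recovered reads, and leaving out each plant. Leaving out BD replicate 4 with BT replicate 5, and replicate 1 of each group, was added after seeing the data. The scripts were tested on simulated data. Correlations and levels were computed in Python 3.11.15 with numpy 2.4.6, pandas 2.3.3 and scipy 1.17.1, and plots drawn with matplotlib 3.10.9. Symbols and sequences came from RefSeq TAIR10.1, in which 21283 of 21450 identifiers and all 7 members matched, and coordinates are those of this annotation. The members and gene lists were chosen with earlier results of these data known. Named were all 7 members, auxin genes with an unadjusted p under 0.05 (at most 3 per list and comparison), and the genes of highest and lowest correlation with the members.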

Additional observations from a re-analysis of the deposited data

Results flagged for a closer look

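In BT the normalized count of IAA1 in replicate 5 was 158, with the nearest of the other 4 plants at 475. The gap was 0.858 of the whole range of the group, above the 95% critical value of 0.71 for 5 samples in Dixon's test. This was the only such plant in 21 sets of 5 plants (7 members in 3 groups), where chance alone gives about 1 in 20.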

How the results depend on the processing

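With edgeR, DESeq2, another pseudocount, filter, adjustment, scaling, trend or weight, with fits of 2 groups or a replicate block, and with plants left out, 0 genes and 0 of the 7 members passed an adjusted p under 0.05 in any comparison, and 0 of 525 re-estimated member differences had an unadjusted p under 0.05. The smallest unadjusted p was 0.138. The signs were not stable, and 63 of the 525 changed, leaving 3 of 21 member comparisons with the same sign throughout (IAA7 in TT against BT, IAA17 in both comparisons of TT). With BD replicate 4 and BT replicate 5 left out, differences changed sign for IAA5 in BT against BD (-0.017), for IAA1 (-0.22) and IAA5 (-0.15) in TT against BT, and for IAA1 (-0.14), IAA3 (-0.16), IAA5 (-0.17), IAA7 (-0.078) and IAA19 (-0.0051) in TT against BD. Without replicate 1 of each group they changed for IAA1 (-0.094), IAA5 (-0.040) and IAA17 (-0.098) in BT against BD and for IAA19 (0.030) in TT against BT. With array weights they changed for IAA1 (-0.042), IAA5 (-0.14) and IAA19 (0.061) in TT against BT and for IAA3 (-0.071) and IAA5 (-0.13) in TT against BD, with quantile normalization for IAA19 in TT against BT (0.020), and on recovered reads for IAA17 in BT against BD (-0.010 with edgeR and -0.012 with DESeq2). With each plant left out in turn, the log2 differences that changed sign ranged as follows, in BT against BD IAA1 -0.25 to 0.36, IAA2 -0.29 to 0.12, IAA3 -0.39 to 0.12, IAA5 -0.27 to 0.31, IAA7 -0.21 to 0.011, IAA17 -0.12 to 0.16, IAA19 -0.0058 to 0.34, then in TT against BT IAA1 -0.22 to 0.21, IAA2 -0.33 to 0.027, IAA3 -0.014 to 0.43, IAA5 -0.15 to 0.26, IAA19 -0.19 to 0.19, and in TT against BD IAA1 -0.14 to 0.32, IAA2 -0.41 to 0.0041, IAA3 -0.16 to 0.35, IAA5 -0.17 to 0.33, IAA7 -0.078 to 0.14, IAA19 -0.0051 to 0.37. The number of genes with an unadjusted p under 0.05 moved in BT against BD from 371 to 236 with the minimum count, to 643 with array weights and to 656 without BD replicate 4 and BT replicate 5, in TT against BT from 2018 to 3099 with array weights and to 1325 without replicate 1 of each group, and in TT against BD from 514 to 805 with 2 groups in the fit and to 1644 with array weights. Leaving out 1 plant gave 226 to 1023, 992 to 3288 and 346 to 1236 such genes, in this order of comparisons. In TT against BT, 940 of these genes were higher and 1078 lower, against 1141 and 927 with quantile normalization, 761 and 1621 with edgeR, and 879 and 1683 with DESeq2, and in TT against BD 211 and 303, against 289 and 217, 183 and 467, and 194 and 455. The median r between members was 0.755, 0.582 on log2(TPM + 1), 0.621 without BD replicate 4 and BT replicate 5, and between 0.692 and 0.777 with 1 plant left out. The causes were not tested. The replicate numbers belong to different plants. Deviations from the group means correlated by 0.068 on average between plants of the same number (-0.671 to 0.454 over 15 pairs, 9 over 0.1). The 3 of 15 plants that correlated best with their own number were the replicates 1. Their coefficients were 0.454 (BD and BT), 0.271 (BD and TT) and 0.368 (BT and TT). In BD, BT and TT replicate 1 the flower marker sums, 43.4, 38.0 and 48.9, were the lowest of their groups. In these plants 6, 5 and 7 members lay below the median of the 15 plants. What the replicates 1 shared, and its part in the members' values, was not tested. With the replicate block 0 genes passed the adjustment and 372, 2035 and 629 had an unadjusted p under 0.05. Depth limited IAA5 most, with 19 to 73 reads per plant.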
